A study of Marchantia polymorpha with 12 samples.

Results

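The elements described here are the 505 long terminal repeat (LTR) retrotransposon copies of Marchantia polymorpha that carry a name beginning with LTRRT in the count tables. They were chosen by name and class alone, with no use of their counts. They are 505 of the 89262 transposable element (TE) copies counted, and 51537 other LTR copies carry names that mark them as found by homology. Of the 505 copies, 433 belong to the Gypsy superfamily, 51 to Copia and 21 have no superfamily. The study asked what loss of function of the Polycomb repressive complex PRC2 does to transcripts of genes and TEs in this liverwort. It measured polyadenylated RNA of 14-day thalli, the leafless haploid plant body, with a directional library kit. The 4 groups were Mpknox2-1 Mpez1-1 double mutants of set 1, Mpknox2-1 single mutants of set 1, Mpknox2-1 Mpez1-2 double mutants of set 2, and Mpknox2-1 single mutants of set 2, with 3 biological replicates each. All 12 libraries thus carry Mpknox2-1, no library of plants without that mutation was analysed here, and each mutant allele of MpE(z)1 stands in 1 experimental set, so allele and set cannot be told apart.

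LTR retrotransposons multiply through an RNA copy that is reverse transcribed and inserted elsewhere in the genome. The direct repeats at both ends hold the promoter and the signals that end the transcript, and the internal region encodes the capsid protein, protease, reverse transcriptase and integrase. Gypsy and Copia elements differ in the order of these enzymes along the internal region. Plants mostly keep such elements silent through DNA methylation and repressive histone marks. In Marchantia a share of the TE heterochromatin carries trimethylation of histone H3 at lysine K27, the mark that PRC2 sets through its catalytic subunit, which MpE(z)1 encodes.

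Each library has a pair of count tables. Gene counts of the first table ranged from 7019900 to 12098548 per library, and those of the second, whose name ends in "as", from 126357 to 225298, so that the second was read as the opposite strand of genes. For TE copies the strand convention is not given in the labels or headers. MpE(z)1 (MpCXC3, Mp5g18040) had 120, 123 and 80 counts in the Mpez1-1 libraries, against 360, 304 and 248 in their controls, and 165, 217 and 204 in the Mpez1-2 libraries, against 392, 344 and 416 in theirs. It was lower in both sets (log2 fold change -1.10, SE 0.15, edgeR adjusted p = 5.98e-04 in set 1; -0.80, SE 0.10, adjusted p = 3.10e-05 in set 2). All 6 thallus marker genes were tested in both sets, where 3 rose and 0 fell in set 1, and 2 rose and 1, MpNOP1, fell in set 2. Of 6 reproductive marker genes 5 were tested in set 1 (3 rose, 1 fell) and 4 in set 2 (1 rose, 1 fell). MpBNB had 46 counts in the Mpez1-1 libraries and 28 in the Mpez1-2 libraries, against 0 in both control groups, whereas MpRKD fell in both sets (log2 -0.51 and -0.31, edgeR adjusted p = 0.0108 and 0.00229). MpFGMYB rose in both sets (log2 1.83 and 2.58, edgeR adjusted p = 4.57e-04 and 2.21e-05), and MpGCS1 rose in set 1 (1.28, edgeR adjusted p = 0.00171). MpBNB was tested in set 1 only because of the Mpez1-1 libraries, and MpFGMYB in set 2 only because of the Mpez1-2 libraries. Those calls therefore give no support. The part of these markers in the results below was not tested. Replicates are biological per the labels, and in whole thalli fewer cells of a type and less RNA per cell cannot be told apart.

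Transcripts of these retrotransposons were few and came from a handful of copies. In the first table they summed to between 646 and 1492 counts per library (median 880), which was 1.04% to 3.34% of all TE counts. Counts of the second table summed to between 85 and 193 counts, or 0.0149% to 0.0327% of TE counts. The first table held 82.0% to 94.1% of the counts of these copies in each library, whereas it held 6.47% to 10.5% of the counts of all other TE copies. The most counted copies carried part of this balance. Without the top 4 of the first table, 2011 counts stood in the first table and 1337 in the second, or 60.1% in the first. Without LTRRT_505 the Copia copies had 236 counts in the first table and 609 in the second. The 430 Gypsy copies outside the top 4 had 1765 counts in the first table and 720 in the second, or 71.0% in the first.

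In the first table, 179 copies had 0 counts in all 12 libraries, 280 had between 1 and 9 counts in total, 39 had between 10 and 99, and 7 had 100 or more. The corresponding numbers of the second table were 211, 268, 25 and 1. A total of 104 copies had no count in either table, and 401 had at least 1. A single copy, LTRRT_344, held 35.2% of the 11564 counts of the first table, the top pair 69.2% and the top 4 copies 82.6%. The other 501 copies shared 2011 counts. In the second table the most counted copy held 7.30% of 1494 counts and the top 10 copies 35.9%. Counts are not divided by copy length, since the length of most copies is not known here, so this is an order of counts and not of transcript levels.

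**Figure D1:**
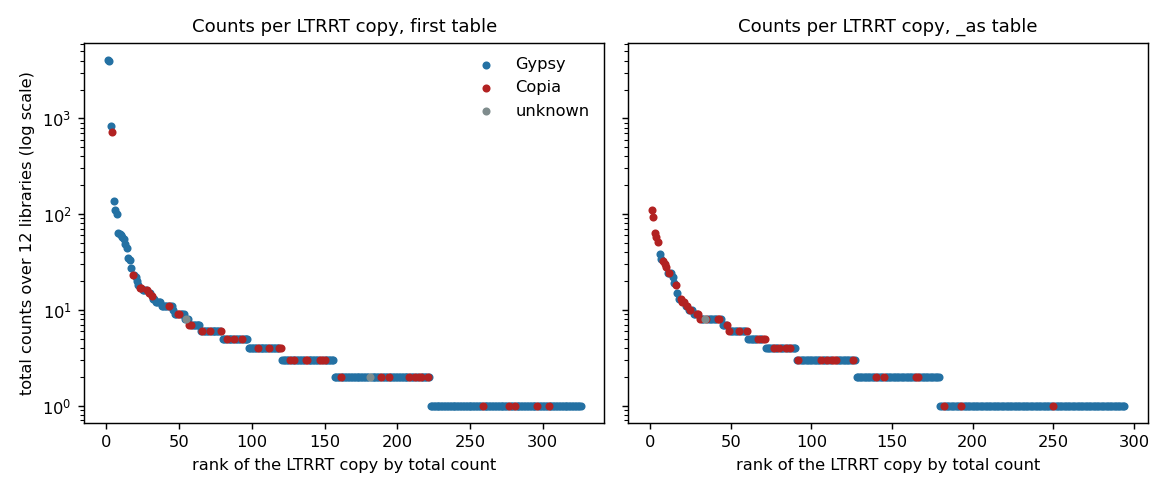
Total counts over 12 libraries (log scale) of each retrotransposon copy with at least 1 count, against its rank, in the first table (left) and the second, named "as" (right), coloured by superfamily. In the left panel the 4 top copies have 724 counts or more and 179 copies with 0 counts are not drawn; on the right the highest copy has 109 counts and 211 copies are not drawn.

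The superfamilies divided unevenly between the 2 tables. Gypsy copies gave 10594 counts, or 91.6%, of the first table and Copia copies 960, or 8.30%. Of the second table's counts Gypsy gave 783 counts, or 52.4%, and Copia 703, or 47.1%, although Copia makes up 51 of the 505 copies. The 21 copies of unknown superfamily had 10 and 8 counts in the 2 tables, and 19 and 20 of them had 0 counts in all libraries.

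By family, 484 copies fell into 51 named families, of which 30 had a single copy. TE_00000842, a Gypsy family, held 309 copies or 61.2% of all, of which 192 had a count in the first table, but these gave only 500 counts, or 4.32%. TE_00000758, a Gypsy family of 2 copies, gave 8006 counts. TE_00001164 (Gypsy, 63 copies, 48 of them counted) gave 1079, TE_00000986 (Gypsy, 1 copy) 823, and TE_00000508 (Copia, 4 copies) 746. The next families by counts were TE_00001040 (Gypsy) with 43 counts, TE_00000670 (Copia) with 36 and TE_00000762 with 32, whose 7 copies are listed under Copia, Gypsy and unknown. The number of copies of a family thus said little about its counts: TE_00000842 had 1.62 counts per copy, and TE_00000758 had 4003.

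Another order held for the second table. TE_00000842 came first with 388 counts, followed by the Copia family TE_00000849 with 177, TE_00001164 with 174, TE_00000508 with 130 and the Copia family TE_00001223 with 102. TE_00001260 and TE_00000982, both Copia, had 63 and 57 counts, and TE_00000758 had 53. TE_00000849 and TE_00001223 had 14 and 9 counts in the first table, so that 7.33% and 8.11% of their counts lay there, and TE_00000982 had 0. For TE_00000758 that share was 99.3%.

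The remaining 21 copies carry coordinates in place of a family name, on a genome build that neither labels nor headers name. They were 1741 to 15387 bases long (median 12215). Of these copies 15 were Gypsy, 5 unknown and 1 Copia. Together they had 49 counts in the first table and 78 in the second. LTRRT_102, a Gypsy copy at chr2:18324217-18339603, had 38 of those 78, counted in every library, with 3, 8 and 3 counts in Mpez1-1 thalli against 2, 1 and 1 in their controls, and 1, 2 and 4 in Mpez1-2 thalli against 1, 5 and 7 in theirs. LTRRT_490, on chromosome V at 839764 to 851827, had 0 counts in both tables.

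Few copies were counted often enough to be tested. Among first-table counts 7 of the 505 copies passed the filter on low counts in set 1 and 6 in set 2. In set 1, LTRRT_344 rose and LTRRT_140 fell (1 higher and 1 lower, against a background of 52.8% higher and 6.6% lower among the 318 TE copies tested). In set 2, LTRRT_344, LTRRT_140 and LTRRT_505 rose and LTRRT_59 fell (3 higher and 1 lower, against a background of 47% higher and 3.17% lower among 315). LTRRT_505 passed the filter in set 2 only through the Mpez1-2 libraries, so it is counted here but gives no support. The median log2 fold change of the tested copies was 0.04 in set 1, against 1.33 over all TE copies tested, and 0.52 in set 2, against 0.83. Of 7 copies tested for a difference between the sets, LTRRT_140 passed (background 2.94% of 477).

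**Figure D2:**
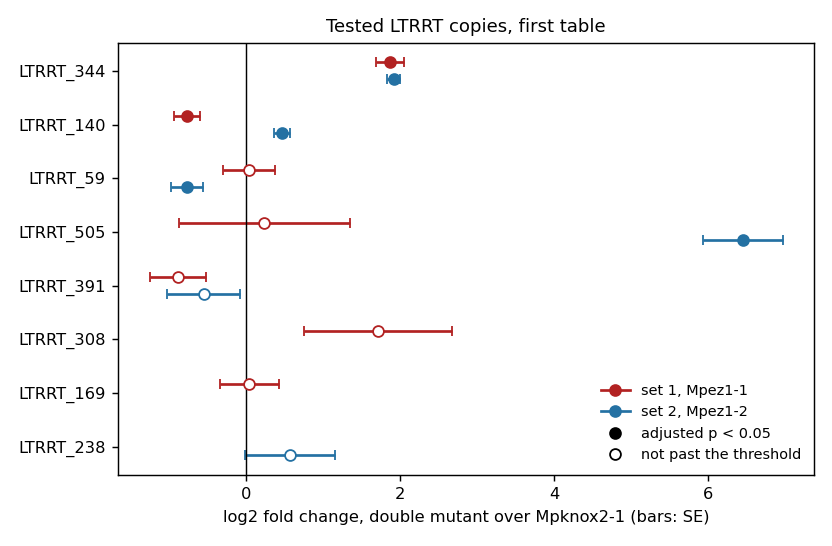
Log2 fold change of the double mutant over its Mpknox2-1 control for each retrotransposon copy tested in the first table, in set 1 (red) and set 2 (blue), with bars for the standard error. Filled points passed an edgeR adjusted p of 0.05, LTRRT_505 in set 2 against controls with 2 counts in all: LTRRT_344 lies at 1.87 and 1.91 in the 2 sets, and LTRRT_140 at -0.77 in set 1 and 0.47 in set 2, the last of which turns to -0.23 with total TE counts as library size.

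The Gypsy pair TE_00000758 carried most of the signal. Its first copy, LTRRT_344, had 444, 362 and 360 counts in the Mpez1-1 libraries, against 111, 182 and 133 in Mpknox2-1 alone. It had 539, 673 and 696 counts in the Mpez1-2 libraries, against 202, 186 and 183 in Mpknox2-1 alone. All 6 double mutant libraries lay above all 6 controls. In CPM, counts scaled to library size, LTRRT_344 averaged 51.2 ± 8.19 in Mpez1-1 and 14.2 ± 2.89 in control thalli, and 63.9 ± 4.96 in Mpez1-2 and 17.8 ± 0.785 in control thalli (SD, n = 3 each). It rose by 1.87 on the log2 scale in set 1 (SE 0.18, edgeR adjusted p = 7.17e-05) and by 1.91 in set 2 (SE 0.08, edgeR adjusted p = 1.61e-10). The fitted difference between the sets was 0.00 (edgeR adjusted p = 1.00).

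Its partner LTRRT_140 had other values. It had 190, 155 and 145 counts in the Mpez1-1 libraries, against 330, 498 and 289 in Mpknox2-1 alone. Set 2 gave 402, 491 and 385 counts in the Mpez1-2 libraries, against 371, 344 and 335 in Mpknox2-1 alone. In CPM these were 21.5 ± 3.34 against 37.0 ± 7.37 in set 1, and 43.0 ± 6.12 against 32.7 ± 1.48 in set 2 (SD, n = 3 each). The double mutants lay below their controls in set 1 and above them in set 2, without overlap of CPM in either set. LTRRT_140 fell in set 1 (log2 fold change -0.77, SE 0.17, edgeR adjusted p = 0.00376) and rose in set 2 (0.47, SE 0.10, edgeR adjusted p = 0.00152), where it turned to -0.23 (edgeR adjusted p = 0.223) with total TE counts as library size. The effect in set 2 exceeded that in set 1 by 1.18 (SE 0.21, edgeR adjusted p = 0.00636). With total TE counts as library size the difference was 1.16 (edgeR adjusted p = 0.0956).

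**Figure D3:**
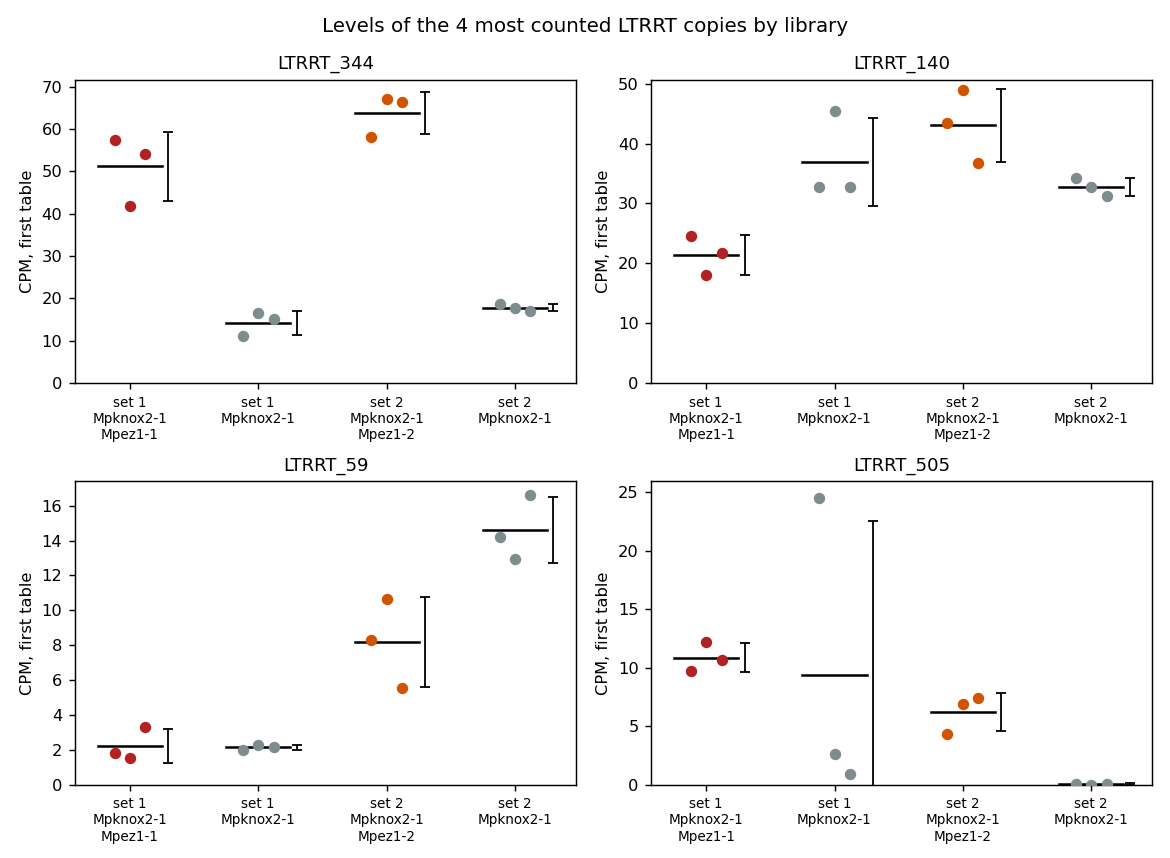
CPM in the first table of the 4 most counted retrotransposon copies in each library (points), with the mean (line) and SD (bar) of each group of 3. LTRRT_344 is higher in every double mutant library than in any control, and the lower end of the SD of LTRRT_505 in set 1 controls lies below 0 and is not drawn.

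Both copies bear 1 family name, so that the share of each in the family's counts does not depend on library size. LTRRT_344 made up 70.4% ± 0.728 of the pair in Mpez1-1 thalli and 27.8% ± 3.30 in their controls, and 59.8% ± 3.96 in Mpez1-2 thalli and 35.2% ± 0.119 in their controls (SD, n = 3 each). The lowest double mutant library stood at 57.3% and the highest control at 31.5% in set 1 and 35.3% in set 2. LTRRT_140 was the more counted copy in all 6 controls, and LTRRT_344 in all 6 double mutants. Copies of 1 family can be near-identical, and how reads that match several copies were assigned is not given in the labels or headers. The share was not tested, since it follows from the counts above.

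**Figure D4:**
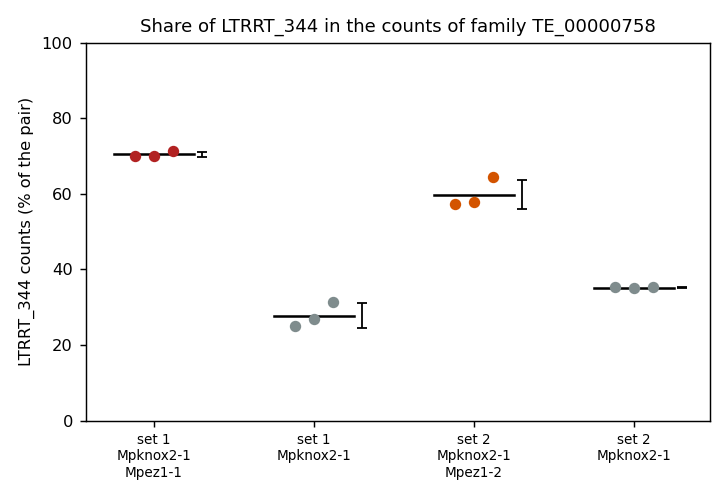
Percent of the counts of family TE_00000758 that fell on LTRRT_344 rather than LTRRT_140 in each library of the first table (points), with the mean and SD of each group. The double mutant libraries lie between 57.3% and 71.3% and the controls between 25.2% and 35.3%.

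As a family, TE_00000758 rose in set 2 (log2 fold change 1.15, SE 0.07, edgeR adjusted p = 5.42e-09) to 107 ± 7.94 CPM in Mpez1-2 thalli, against 50.5 ± 2.26 in controls (SD, n = 3 each). Of 5 families tested in set 2, 3 passed, against a background of 53.6% of 166 TE families, among them TE_00000508, which had 3 counts in the controls. In set 1 TE_00000758 was the only 1 of 5 tested families to pass (background 41.5% of 212), with 72.6 ± 11.5 CPM in Mpez1-1 thalli, against 51.2 ± 9.65 in controls, a rise of 0.52 on the log2 scale (SE 0.16, edgeR adjusted p = 0.0276). That call was lost with the replicate number as a block (edgeR adjusted p = 0.0568). It was also lost without control replicate 1 (0.0986) or 3 (0.0866), without Mpez1-1 replicate 1 (0.0939) or 3 (0.0612), and with total TE counts as library size, where the fold change was -0.11. None of 5 families tested for a difference between sets passed by edgeR (background 6.35% of 252), with 2 at an unadjusted p under 0.05 and 1 called by DESeq2. The family called by DESeq2, TE_00000508, passed the low-count filter only through the double mutants, so that call gives no support.

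A further 27 copies found by homology carry the name of the LTR of this family, TE_00000758_LTR. They summed to 1636, 1659 and 1299 counts in Mpez1-1 libraries, against 1195, 1452 and 1070 in controls, and to 1174, 1419 and 1442 in Mpez1-2 libraries, against 439, 424 and 442 in controls. These sums rose in both sets (log2 fold change 0.71, SE 0.09, edgeR adjusted p = 2.91e-04 in set 1; 1.80, SE 0.06, edgeR adjusted p = 1.07e-11 in set 2), and by 1.05 more in set 2 (edgeR adjusted p = 3.55e-05). With total TE counts as library size the calls for set 1 (0.07, edgeR adjusted p = 0.953) and for the difference (1.03, edgeR adjusted p = 0.251) were lost. Among the 4 most counted of these fragments, TE_homo_28479 and TE_homo_28581 rose in both sets, by 1.83 and 1.42 in set 1 and by 2.81 and 3.50 in set 2. TE_homo_37677 rose in set 2 (0.56, edgeR adjusted p = 0.00465), its value of 0.04 in set 1 did not pass (edgeR adjusted p = 0.843), and the difference of 0.48 did not pass either (edgeR adjusted p = 0.293). TE_homo_28840 had fold changes of -0.27 and -0.19 that did not pass (edgeR adjusted p = 0.206 and 0.639). Fragments that share this name thus differed in their values, as the pair of named copies did.

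LTRRT_59 is the single copy of the Gypsy family TE_00000986. It had 77, 107 and 58 counts in the Mpez1-2 libraries, against 154, 136 and 178 in its controls. Set 1 gave 14, 13 and 22 in the Mpez1-1 libraries, against 20, 25 and 19 in its controls. It fell in set 2 (8.17 ± 2.57 CPM in Mpez1-2 thalli, against 14.6 ± 1.88 in controls; -0.77 on the log2 scale, SE 0.21, edgeR adjusted p = 0.00886). In set 1 the levels were 2.21 ± 0.962 CPM in Mpez1-1 thalli and 2.14 ± 0.149 in controls (0.04 on the log2 scale, SE 0.34, edgeR adjusted p = 0.922). The difference between the effects did not pass (-0.85, SE 0.42, edgeR adjusted p = 0.298). Both groups of set 2 lay above both groups of set 1. Homology copies named TE_00000986_INT, 32 in number, had sums of 18, 38 and 27 counts in Mpez1-2 libraries against 35, 34 and 45 in controls, and 2, 5 and 4 in Mpez1-1 libraries against 5, 8 and 2 in controls, and did not pass in set 2 (log2 fold change -0.28, edgeR adjusted p = 0.430).

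The Copia family TE_00000508 was counted in set 2 almost only in the double mutants. Its main copy, LTRRT_505, had 40, 69 and 78 counts in the Mpez1-2 libraries, against 1, 0 and 1 in the set 2 controls, a pooled ratio of 101 with an exact 95% interval of 27.5 to 837 that covers counting error only. With so few control counts the copy was tested in set 2 only because of its Mpez1-2 libraries, so its call there gives no support. In set 1 LTRRT_505 had 75, 105 and 71 counts in the Mpez1-1 libraries, against 247, 29 and 8 in the controls. The 3 controls of set 1 therefore spanned the double mutants, and the log2 fold change of 0.24 did not pass (SE 1.11, edgeR adjusted p = 0.866). Without control replicate 1 it was 2.58 (edgeR adjusted p = 0.00189). The difference between the sets was 6.16 (SE 2.04, edgeR adjusted p = 0.137), and 3.89 (edgeR adjusted p = 0.0207) without that library. In both fits without that library LTRRT_505 passed the low-count filter only through the double mutants, so neither call gives support.

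A second copy of this family, LTRRT_356, was counted in the first table in the Mpez1-2 libraries alone, with 0, 7 and 8 counts and 0 in each of the other 9 libraries. Against a floor of 3 counts over the 3 controls it was at least 5.38-fold higher. In the second table it had 5, 7 and 17 counts in the Mpez1-2 libraries, against 0 in the set 2 controls (at least 10.4-fold higher). Set 1 gave 0, 1 and 0 in the Mpez1-1 libraries, against 0 in each control. The other members, LTRRT_198 and LTRRT_245, had 4 and 3 counts in the first table. Summed as a family, TE_00000508 had 205 counts in Mpez1-2 libraries and 3 in controls, a pooled ratio of 73.6 (exact 95% interval 24.8 to 360), and it too was tested only because of the Mpez1-2 libraries.

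Homology copies named TE_00000508_INT, 21 in number, bear the family's name with the suffix INT. Nearly all of their first-table counts, 99.8%, fell on TE_homo_57228. It had 229, 263 and 188 counts in the Mpez1-1 libraries and 0 in each set 1 control, at least 294-fold higher, and 1028, 1188 and 1195 counts in the Mpez1-2 libraries and 0 in each set 2 control, at least 1224-fold higher. That fragment was thus counted in all 6 double mutants and in no control, whereas LTRRT_505 was counted in all set 1 controls. In the second table most counts of these fragments, 69.5%, fell on TE_homo_51586, with 79, 82 and 83 counts in the Mpez1-2 libraries against 0 in the controls (at least 87.6-fold higher) and 2, 0 and 0 in the Mpez1-1 libraries against 0 in theirs.

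TE_00001164 was the Gypsy family with the most copies above 40 counts, and none of its tested copies passed, although some passed under other settings. As a family it had 40, 81 and 102 counts in Mpez1-1 libraries against 85, 103 and 82 in controls, and 100, 91 and 80 in Mpez1-2 libraries against 116, 90 and 109 in controls. The log2 fold change was 0.15 (SE 0.33, edgeR adjusted p = 0.777) in set 1 and -0.03 (SE 0.17, edgeR adjusted p = 0.894) in set 2. LTRRT_391 had 6, 11 and 4 counts in Mpez1-1 libraries against 16, 18 and 17 in controls, and 4, 14 and 6 in Mpez1-2 libraries against 15, 11 and 14 in controls. Its fold changes were -0.89 (SE 0.37, edgeR adjusted p = 0.0644) and -0.55 (SE 0.48, edgeR adjusted p = 0.364). LTRRT_391 was called lower with total TE counts as library size in both sets (edgeR adjusted p = 0.0400 and 0.0275), and in set 1 with both tables summed (edgeR adjusted p = 0.0488) or without Mpez1-1 replicate 2 (edgeR adjusted p = 0.0340). With total TE counts and without that replicate, LTRRT_391 passed the low-count filter only through its controls, so those calls give no support. The family was lower in set 2 with total TE counts as library size (-0.73, edgeR adjusted p = 0.00253). LTRRT_308 was scattered within groups, with 5, 11 and 32 counts in Mpez1-1 libraries against 12, 8 and 0 in controls, and 7, 0 and 0 in Mpez1-2 libraries against 16, 3 and 17 in controls (log2 fold change 1.71, SE 0.96, edgeR adjusted p = 0.168 in set 1). It was not tested in set 2, but was called lower there without control replicate 2 (edgeR adjusted p = 0.0439) or without Mpez1-2 replicate 1 (edgeR adjusted p = 0.0103). In both of these fits LTRRT_308 passed the low-count filter only through its controls, so the calls give no support. LTRRT_169 and LTRRT_238 had fold changes of 0.04 in set 1 and 0.57 in set 2 (edgeR adjusted p = 0.930 and 0.458).

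The family with the most copies, TE_00000842, did not pass in either set. It had 42, 56 and 44 counts in Mpez1-1 libraries against 66, 58 and 68 in controls, and 20, 32 and 28 in Mpez1-2 libraries against 36, 20 and 30 in controls. These gave log2 fold changes of -0.05 (SE 0.21, edgeR adjusted p = 0.888) and 0.07 (SE 0.29, edgeR adjusted p = 0.856). In CPM the family stood at 6.18 ± 0.642 and 6.51 ± 1.20 in the Mpez1-1 and control thalli of set 1, and at 2.67 ± 0.516 and 2.68 ± 0.720 in the Mpez1-2 and control thalli of set 2, so that its levels differed more between sets than between genotypes.

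Some copies too rare to test were counted almost only in 1 genotype of a set. They were singled out after their values had been seen and carry no test. LTRRT_348 (Gypsy, TE_00000825) had 4, 4 and 10 counts in Mpez1-1 libraries against 1, 1 and 0 in controls, a pooled ratio of 11.7 (exact 95% interval 2.80 to 104). LTRRT_123 (Copia, TE_00001167) had 0, 2 and 0 counts in Mpez1-1 libraries against 1, 3 and 16 in controls, a pooled ratio of 0.130 (exact 95% interval 0.0147 to 0.534), with most control counts in a single library.

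Summed over all 505 copies, the first table gave 107 ± 11.8 CPM in Mpez1-1 and 83.7 ± 9.43 in control thalli, and 136 ± 11.2 CPM in Mpez1-2 and 79.6 ± 3.60 in control thalli (SD, n = 3 each). The sums did not overlap between genotypes in either set. The mean log2 difference over sets was 0.56 (0.36 in set 1 and 0.77 in set 2; two-sided exact permutation test within sets, p = 0.005, the smallest that the 400 arrangements can give; 0.04 adjusted over 8 such tests). Without the 4 most counted copies the other 501 gave 21.8 ± 4.67 CPM in Mpez1-1 and 21.0 ± 1.17 in control thalli, and 14.5 ± 0.772 in Mpez1-2 and 14.4 ± 1.64 in control thalli. Their mean log2 difference was 0.02 (exact permutation p = 0.85). With LTRRT_505 kept and the top 3 left out it was 0.35 (exact permutation p = 0.09). The removal of 4 copies was chosen after the values had been seen. Of these, LTRRT_344 was higher in the double mutants of both sets, while LTRRT_140 was lower in set 1 and LTRRT_59 lower in set 2.

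**Figure D5:**
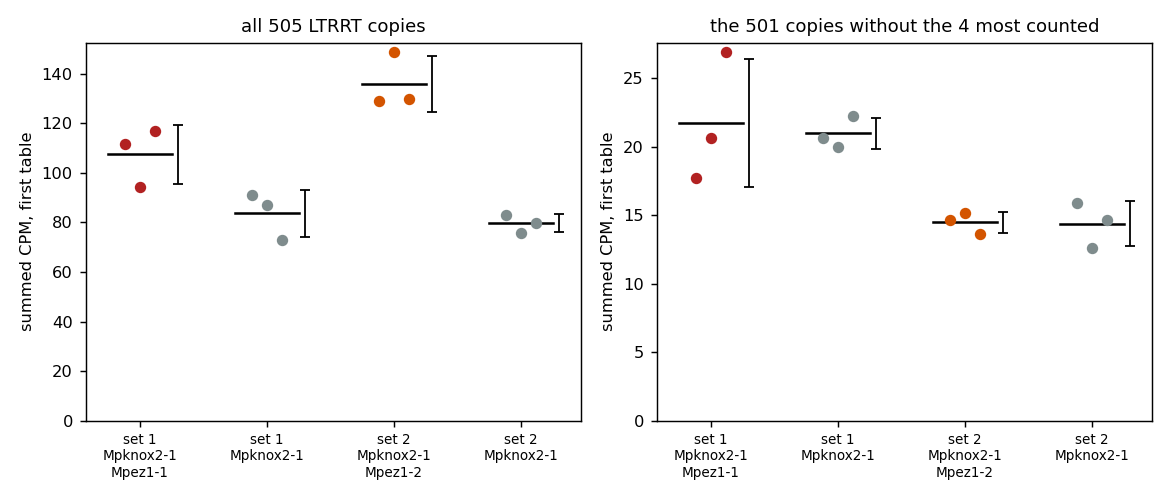
Summed CPM of the first table in each library (points) with the mean and SD of each group, for all 505 copies (left) and for the 501 copies left after removal of the 4 most counted (right). On the left the double mutants of each set lie above their controls; on the right the groups of each set overlap.

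By superfamily, Gypsy copies summed to 93.6 ± 13.0 CPM in Mpez1-1 and 71.1 ± 9.70 in control thalli, and to 128 ± 10.7 in Mpez1-2 and 78.5 ± 3.38 in control thalli (SD, n = 3 each). The mean log2 difference of 0.55 (exact permutation p = 0.01, adjusted 0.04) was -0.00914 (p = 0.945) over the 430 Gypsy copies left without the top 3. Copia copies summed to 13.8 ± 1.26 CPM in Mpez1-1 and 12.4 ± 13.4 in control thalli, and to 7.72 ± 2.47 in Mpez1-2 and 1.06 ± 0.220 in control thalli. Their mean log2 difference was 1.77 (exact permutation p = 0.02, adjusted 0.0533), and 0.18 (p = 0.585) over the 50 copies without LTRRT_505.

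As a share of all TE counts of the first table, the 505 copies made up 1.34% ± 0.272 in Mpez1-1 and 1.58% ± 0.502 in control thalli, and 2.83% ± 0.463 in Mpez1-2 and 2.56% ± 0.278 in control thalli (SD, n = 3 each). The mean difference was 0.0155 percentage points (two-sided exact permutation p = 0.965, adjusted 0.965). Leaving out the 3 most counted TE copies, which held 31.4% to 75.2% of TE counts per library, turned the difference to -0.895 points (exact permutation p = 0.015). The shares were then 3.0% ± 0.409 in Mpez1-1 and 4.31% ± 0.183 in control thalli, and 4.32% ± 0.517 in Mpez1-2 and 4.80% ± 0.332 in control thalli.

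A single copy of the second table, 1 of 505, could be tested in each set and none passed by edgeR or DESeq2, with 0 at an unadjusted p under 0.05, against backgrounds of 51.4% of 1178 TE copies in set 1 and 45.3% of 1204 in set 2. For the difference between sets 2 copies were tested, with 0 calls by edgeR, 0 by DESeq2 and 0 at an unadjusted p under 0.05 (background 14.3% of 1492). LTRRT_367, a Copia copy of TE_00000849, had 4, 10 and 7 counts in Mpez1-2 libraries against 12, 13 and 17 in controls (log2 fold change -0.82, SE 0.46, edgeR adjusted p = 0.172), and 8, 8 and 3 in Mpez1-1 libraries against 9, 11 and 7 in controls. LTRRT_505 had 18, 14 and 11 counts in Mpez1-1 libraries against 25, 15 and 2 in controls (0.46, SE 0.64, edgeR adjusted p = 0.565), and 5, 3 and 0 in Mpez1-2 libraries against 0, 0 and 1 in controls. LTRRT_360, of the same family as LTRRT_367, had 6, 6 and 5 counts in Mpez1-1 libraries against 8, 8 and 8 in controls, and 2, 2 and 3 in Mpez1-2 libraries against 4, 1 and 11 in controls. In CPM the Mpez1-2 libraries lay below all controls for LTRRT_367, and the genotypes overlapped in the other comparisons of these 3 copies.

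By family, TE_00000508 was called in the second table of set 2 (1 of 4 tested; background 39.6% of 227), with 11, 10 and 18 counts in Mpez1-2 libraries against 0, 0 and 2 in controls, a pooled ratio of 21.0 (exact 95% interval 5.44 to 179), and was tested only because of the Mpez1-2 libraries. Its counts in set 1 were 18, 16 and 11 in Mpez1-1 libraries against 25, 15 and 4 in controls (0.45, SE 0.53, edgeR adjusted p = 0.645). In set 1 none of 5 tested families passed by edgeR (background 36.5% of 271), with 0 at an unadjusted p under 0.05 and 0 called by DESeq2. The effect on TE_00000508 was larger in set 2 by 3.70 (SE 1.03, edgeR adjusted p = 0.0224; 1 of 5 families tested, background 10% of 299). The family passed the low-count filter there only through the double mutants, so that call gives no support. That call was lost without set 1 control replicate 1 (3.16, edgeR adjusted p = 0.0585), set 2 control replicate 1 (3.20, 0.0696) or 2 (3.21, 0.0772), or Mpez1-2 replicate 3 (3.44, 0.0585). Summed over all copies, the second table gave 15.2 ± 2.06 CPM in Mpez1-1 and 16.6 ± 0.873 in control thalli, and 10.01 ± 0.919 in Mpez1-2 and 10.7 ± 1.49 in control thalli (mean log2 difference -0.12, exact permutation p = 0.235, adjusted 0.313). For Gypsy the difference was -0.15 (exact permutation p = 0.14, adjusted 0.224) and for Copia -0.09 (p = 0.565, adjusted 0.646). The share of TE counts differed by -0.00449 percentage points (exact permutation p = 0.12, adjusted 0.224).

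Genes that act on TE silencing were followed by symbol. Of 34 such genes 29 were tested in set 1, where 8 rose, 2 fell and 19 did not pass (background 25% higher and 26.3% lower of 12633 genes). In set 2, 27 were tested, of which 6 rose, 5 fell and 16 did not pass (background 19.1% higher and 19.2% lower of 12744). That count of 11 was 5 by DESeq2 (4 higher, 1 lower), and 6 without set 2 control replicate 3 or Mpez1-2 replicate 2 and 7 without Mpez1-2 replicate 1. MpH2A.W.1 and MpNRPE1b in both sets, and MpPIWIa and MpPIWIb in set 1, passed the low-count filter only through the double mutants. They are counted among the genes that rose, but their calls give no support. MpH2A.W.1, of the heterochromatin-associated histone variant family, had 43 counts in Mpez1-1 libraries and 43 in Mpez1-2 libraries, against 0 in either control group, at least 18.6-fold and 15.4-fold higher. MpPIWIa and MpPIWIb, of the small RNA-binding Argonaute superfamily, averaged 15.6 ± 7.53 and 6.66 ± 2.29 CPM in Mpez1-1 thalli, against 0.282 ± 0.248 and 0.132 ± 0.0447 in controls (SD, n = 3 each), and were too rare to test in set 2. MpNRPE1b, a gene of the RNA polymerase V large subunit family, stood at 2.91 ± 0.514 CPM in Mpez1-1 thalli, against 0.202 ± 0.0220 in controls, and at 2.98 ± 0.802 CPM in Mpez1-2 thalli, against 0.314 ± 0.307 in controls. The other genes that rose in set 1 were MpNRPD1 (log2 1.05, edgeR adjusted p = 8.75e-05), MpMORC1 (0.65), MpDCL4 (0.53) and MpMORC2 (0.48), all counted in every control. In set 2 MpDRMa, of a DNA methyltransferase family, rose by 0.35 (edgeR adjusted p = 0.00736), as did MpMORC2 (0.30), MpRDR5/6-1 (0.25) and MpDNMT3b (0.25). The genes that fell included MpSUVHa (-0.88) and MpHEN1 (-0.55) in set 1, named for a histone methyltransferase family and for the enzyme that methylates small RNAs. In set 2 they included MpAGO4a (-0.57), an Argonaute gene, MpMET (-0.51), named for the maintenance DNA methyltransferase, and MpDDM1 (-0.50), named for a chromatin remodeller needed for DNA methylation in Arabidopsis. The part of these genes in the levels of the retrotransposons was not tested.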

How the data were processed

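Polyadenylated RNA of 12 libraries, 3 per group, was sequenced with a directional kit, per the labels' protocols. The submitters' processing notes name Trim Galore and STAR, without versions or order. The authors deposited whole-number read counts per gene and TE copy in a pair of tables per library. The genome build, the counting tool, the treatment of reads with several matches and the strand taken for TE copies are named in no label or header read here. Alignment names in the file headers contain "Tak2" in set 2 and not in set 1. Whether that names the strain or the reference genome is not given. If either differs between the sets, it cannot be told apart from set and allele. No column belonged to another sample (0 such columns).

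The main test was edgeR's quasi-likelihood test (edgeR 4.0.16, R 4.3.3; TMM scaling over genes and TE copies of the first table, minimum count 10 and minimum total 15). P-values were adjusted by Benjamini-Hochberg over all TE copies, families or genes tested, with a threshold of 0.05. The second tables used the library sizes of the first. Each set of 6 libraries was fitted alone, and all 12 together for the difference, set 2 minus set 1. Family values are sums over copies. Summed CPM and shares were compared by two-sided exact permutation within sets. Pooled ratios have exact 95% intervals, and a floor of 3 counts over a group's 3 libraries replaced a count of 0. Intervals and floors cover counting error only. DESeq2 1.42.0, other scalings, no filter, a replicate block and leaving out each library were alternatives. Tests were checked on simulated data. Tables and figures used Python 3.11.15, pandas 2.3.3, scipy 1.17.1 and matplotlib 3.10.9.

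Gene symbols came from the RefSeq table of assembly MpTak2 v7.1, by ID: 17624 of 19441 gene IDs matched and 3088 had a symbol. Copies and families were named by counts (the 3 top copies and 8 top families by mean CPM per table) and by calls (up to 5 per direction called in both sets, up to 3 called in 1 set, and up to 3 leading the test of the difference). The members and lists were chosen with earlier results of these data known. No sequences are shown, since no genome was used here.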

Additional observations from a re-analysis of the deposited data

Results flagged for a closer look

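A test of the difference between the sets passed for 1 copy, 1 family and 2 groups of homology fragments, each with a limit given below. In each case allele and experimental set cannot be told apart. The backgrounds were 2.94% of 477 TE copies and 6.35% of 252 families in the first table, and 10% of 299 families in the second.

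In the first table LTRRT_140 (Gypsy, TE_00000758) differed by 1.18 on the log2 scale, set 2 minus set 1 (edgeR adjusted p = 0.00636), with opposite directions in the sets, and the difference did not pass with total TE counts as library size (1.16, edgeR adjusted p = 0.0956). The TE_00000758_LTR fragments differed by 1.05 (edgeR adjusted p = 3.55e-05), with a rise in both sets, and the difference did not pass with total TE counts as library size (1.03, edgeR adjusted p = 0.251). In the second table the Copia family TE_00000508 differed by 3.70 (edgeR adjusted p = 0.0224), a call lost without any of 4 libraries in turn (edgeR adjusted p = 0.0585 to 0.0772). The TE_00000508_INT fragments differed there by 4.36 (edgeR adjusted p = 0.00374), with 86, 91 and 101 counts in Mpez1-2 libraries against 0, 0 and 1 in controls, and 17, 31 and 19 in Mpez1-1 libraries against 3, 2 and 3 in controls. The family and these fragments passed the low-count filter only through the double mutants, so their calls give no support. The controls of TE_00000508 differ between sets, with 0, 0 and 2 counts in set 2 and 25, 15 and 4 in set 1, and their part in its difference was not tested.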

How the results depend on the processing

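Over all alternatives, 230 values that answer a comparison held (a count within 1.5 times of the reported one, a tested value with its direction and side of the threshold) and 30 did not; of values of single copies, families, fragments and superfamilies 978 held and 35 did not. With total TE counts as library size, which shifts the median of all genes by -0.63 in set 1 and -0.71 in set 2, the difference between sets was called for 2 copies, LTRRT_308 (-4.19) and LTRRT_505 (6.04), and no longer for LTRRT_140, 0 rather than 1 families passed in set 1 (TE_00000758 turned to -0.11), and LTRRT_140 in set 2 turned to -0.23. Without the filter on low counts, 4 rather than 2 copies passed in set 1 (also LTRRT_308 and LTRRT_348), LTRRT_356 passed in set 2 (5.41, edgeR adjusted p = 0.0238), and in set 2 of the second table a single copy rather than none passed, 1 against 0 (LTRRT_356, 6.36, edgeR adjusted p = 1.58e-05). The DESeq2 test called 2 copies and 1 family for the difference (edgeR 1 and 0) and 5 rather than 11 silencing genes in set 2. The copy and family added by DESeq2, LTRRT_505 and TE_00000508, passed the low-count filter only through the double mutants, so these calls give no support. The summed CPM gave 0.35 without the top 3 copies and 0.0238 without the top 4, and Gypsy -0.00914 under both. The share of TE counts gave -0.895 points without the top 3 TE copies. The causes were not tested, apart from the copies left out.

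Leaving out each library gave 2 to 3 copies in set 1, 4 to 5 in set 2, 1 to 2 copies for the difference, 0 to 1 families in set 1, 0 to 2 families for the difference, and, in the second table, 1 to 2 families in set 2 and 0 to 1 for the difference. Silencing genes in set 2 numbered 6 to 9, and the share of the second table differed by -0.00594 to -0.00245 points. LTRRT_505 in set 1 ranged from -0.29 to 2.58, the highest value without control replicate 1. LTRRT_344 kept its call, at 1.69 to 1.99 in set 1 and 1.88 to 1.96 in set 2.

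With a replicate block 0 families passed in set 1, with TE_00000758 at 0.53 (edgeR adjusted p = 0.0568). Same-numbered libraries correlated at 0.0448, -0.00495 and 0.0986 in set 1 and 0.0884, 0.0454 and 0.0641 in set 2, so the numbers were not taken to pair samples; in set 2 each library correlated best with its own number, a hint from the data and not the design. Depth limits the rest: 498 of 505 copies in set 1 and 499 in set 2 did not pass the filter of the first table.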
